A study of Mus musculus with 34 samples.

Results

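Cytosolic ribosomal protein genes were followed across 3 brain regions and 3 groups of mice. They were chosen by symbol alone, as every row of the deposited FPKM table named *Rpl* or *Rps* with a number and at most the ending a, x, l or l1, together with *Rplp0*, *Rplp1*, *Rplp2* and *Rpsa*. The rule used no measured value and found 81 of 16389 rows, of which 49 are named for the large (60S) and 32 for the small (40S) subunit. All 81 reached the filter on low values, an FPKM (reads scaled to transcript length and library size) of at least 1 in at least 3 libraries, and 79 were among the 14710 genes tested, 48 of the 60S and 31 of the 40S subunit. *Rps4l* and *Rpl6l*, which the annotation lists as pseudogenes, were not tested and are given as levels. Pseudogene rows and 5 ribosome components with other symbols were outside the rule, and *Rpl3l*, *Rpl10l*, *Rpl39* and *Rpl39l* were not analysed here.

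RNA was sequenced in 34 libraries, each from 1 brain region of 1 C57BL/6 mouse. WT CON mice had neither irradiation, transplant nor inhibitor. GFP-BM CON mice received 1000 cGy of whole-body irradiation and a transplant of bone marrow from CAG-EGFP donors, in which a ubiquitous promoter drives EGFP. In GFP-BM REPOP mice irradiation and transplant were followed after 3.5 months by the CSF1R inhibitor PLX3397, at 600 ppm in chow for 14 days, and by 6 months of recovery, so that irradiation and transplant were common to both transplanted groups and the inhibitor was the labelled difference between them. In the order in which the groups are named here, the libraries were 3, 4 and 4 of cortex, 4 each of hippocampus, and 4, 3 and 4 of thalamus, which was dissected together with the striatum. The animals were 4 per group, and in bulk tissue fewer cells of a type cannot be told apart from less RNA per cell. The p values measure a spread between mice that is pooled over all groups of a fit. These were the 3 groups of a region for treatments, and all 9 groups for comparisons of regions.

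The eukaryotic ribosome joins a large subunit, which forms peptide bonds, and a small subunit, which reads the message. Cells need the proteins of each subunit in roughly equal numbers, and their messages are controlled together at the level of translation by a run of pyrimidines at the very start of the mRNA, the 5′ terminal oligopyrimidine (TOP) tract, through which mTOR and LARP1 act. In the brain ribosomal protein messages are abundant in every cell type and are also carried into neuronal processes.

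The start of the transcript was looked at first, because it is what members are known to share and what the rule did not use. RefSeq sequence around annotated starts (build GRCm38.p6) was matched for 59 of the 81 members, with 70 starts. A C at the first base followed by 4 bases that are each C or T, read on the sense strand, was found at 14 of these starts, or 20.0%, against 2.51% of all 32851 starts in the same reference. Within 5 bases of the annotated start on either side it was found at 31 starts, or 44.3%, against 18.3% of all. Of the 10 members singled out for their roles, 7 had an entry. They are shown from 10 bases before to 15 bases from the annotated start, 25 bases each, 5′ to 3′, with the unbroken run of C and T that begins at that start in capitals:

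Rplp2 (chr7:141447641-141447665, plus strand): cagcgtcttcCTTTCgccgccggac
Rps6 (chr4:86857353-86857377, minus strand): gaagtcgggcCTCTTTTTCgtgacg
Rplp0 (chr5:115559457-115559481, plus strand): cgggtttcgaggaccgcctggttct
Rpsa (chr9:120127756-120127780, plus strand): ttatttaaggacgtcatttccggcc
Rpl11 (chr4:136053379-136053403, minus strand): ccataaggccacggggccggaagtc
Rpl5 (chr5:107900518-107900542, plus strand): cgtcgcttgcgtgctggtggtgcta
Rps4x (chrX:102189377-102189401, minus strand): gctgggcggagcaacccaggctcca

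*Rplp2* and *Rps6* carried a run of 5 and 9 pyrimidines at the annotated first base, and the other 5 had no pyrimidine there. No match says only that the annotated start does not fall on such a run in this window.

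Ribosomal protein messages were among the most abundant in all 3 regions. The median member had a mean FPKM of 80.2 over the 34 libraries, against 8.72 for all genes tested, and 64 of the 81 members lay above the 90th percentile of the table. Their reads made up between 0.547% and 1.14% of a library. Levels differed widely between members, from 599 FPKM for *Rplp1* to 1.63 for *Rpl32l*. After *Rplp1*, an acidic protein of the stalk that recruits elongation factors, the highest means belonged to the 40S proteins *Rps15* (491), *Rps14* (367) and *Rps29* (351), and to the 60S protein *Rpl8* (310). The lowest above *Rpl32l* were *Rpl7l1* (15.7), *Rps4l* (17.5), *Rps15a* (20.7) and *Rpl37* (22.3). The median over members was 72.0 FPKM for the 60S and 106 for the 40S subunit. The order of members was nearly the same in every library: Spearman's rho across the 79 members, which are not independent replicates, was at least 0.971 for any pair of libraries.

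**Figure D1:**
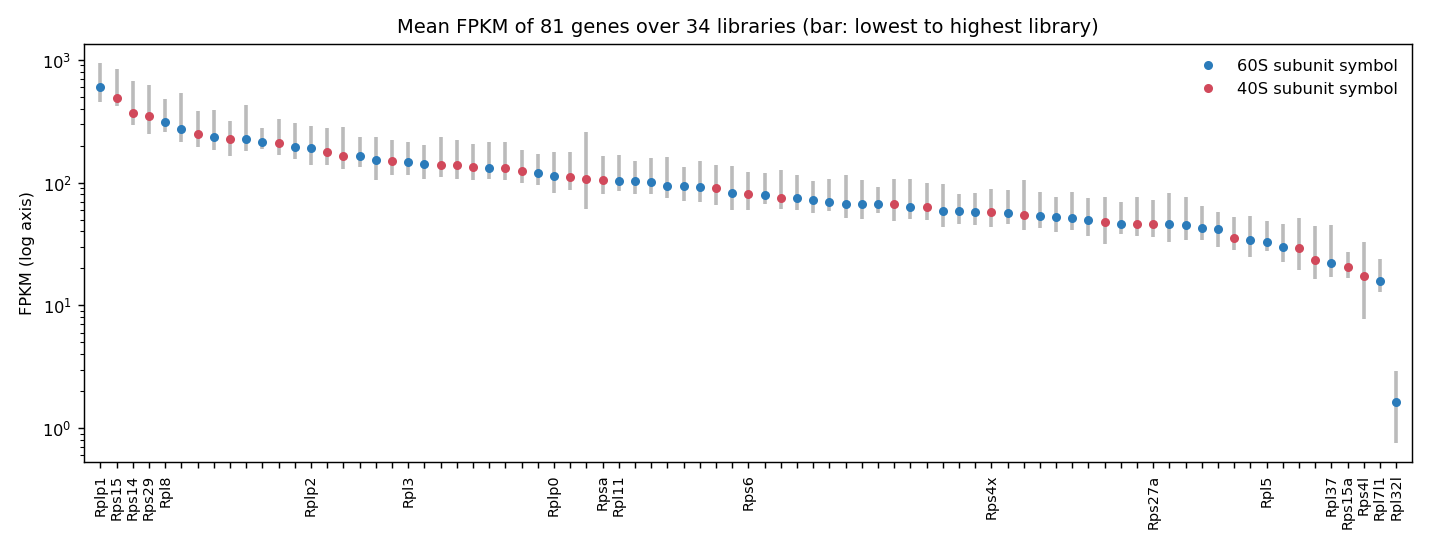
Mean FPKM of each of the 81 members over 34 libraries, on a log axis, in falling order, with the 60S members in blue and the 40S members in red. Grey bars run from the lowest to the highest library, and names are given for the 5 highest, the 5 lowest and the 10 members with known roles. Members range from 599 FPKM for *Rplp1* to 1.63 for *Rpl32l*, while single members vary much less between libraries.

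Several low levels belonged to genes with near copies elsewhere in the table, and such values are uncertain. The alignment kept reads that map to several places, and how the counting step treated them is not given in the sources used here. Of the 80 members with a matched transcript, all but 6 shared at least 1 window of 100 bases with the transcript of another gene, with a median of 18.4% of windows and up to 80.1% for *Rpl24*. The 28 members with at least 30% of windows shared had a median of 77.6 FPKM and the 52 others 85.9. The table also holds 19 rows named as pseudogenes or retrogenes of ribosomal proteins, whose reads came to 14.4% of those of the members. *Rps27rt* had 436 FPKM against 47.3 for *Rps27*, *Rpl37rt* 257 against 22.3 for *Rpl37*, *Rps6-ps4* 304 against 80.2 for *Rps6*, and *Rps15a-ps5* 69.1 against 20.7 for *Rps15a*. *Rpl17-ps10* had 169 against 69.7 for *Rpl17*, *Rpl13-ps6* 112 against 53.7 for *Rpl13*, *Rpl34-ps1* 163 against 91.4 for *Rpl34*, and *Rpl36-ps12* 172 against 152 for *Rpl36*. For these 8 members the row of a copy was higher than that of the member itself, and reads that fit both cannot be told apart here.

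The first comparison asked how far the regions differ without treatment, with the same cortex libraries on one side of both comparisons with the cortex. Its SE and p values rest on a spread pooled over all 9 groups, transplanted mice included. A fit of the WT CON libraries alone called fewer members, as given below. In WT CON mice ribosomal protein messages were higher in the hippocampus than in the cortex. All 79 tested members had a higher mean, with a median difference of 0.34 on the log2 scale of FPKM + 0.1, against 0.06 over all genes tested. By limma with Benjamini-Hochberg adjustment 45 members rose past an adjusted p of 0.05 and 0 fell, where 38.3% of all genes were called in either direction and 16.6% were called higher in the hippocampus. These 45 comprised 25 of the 48 members of the 60S subunit and 20 of the 31 of the 40S subunit, with median differences of 0.32 and 0.38 over each subunit. Groups did not overlap for 70 members, all higher in the hippocampus, against 42.6% of all genes.

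*Rpl22*, an RNA-binding 60S protein, had the lowest adjusted p. Its FPKM was 53.8, 51.5, 47.9 and 64.3 in the 4 WT CON hippocampi and 37.9, 38.8 and 39.9 in the 3 cortices, and the groups did not overlap. The difference was 0.47 ± 0.11 (SE) with an adjusted p of 0.0013. *Rps15a*, a 40S protein, rose by 0.40 ± 0.092 (adjusted p = 0.0018), from 18.1, 19.8 and 18.5 in the cortex to 26.5, 26.7, 22.6 and 23.7. *Rpl3*, a core 60S protein near the peptidyl transferase centre, measured 199, 179, 164 and 180 in the hippocampus and 131, 131 and 120 in the cortex, a rise of 0.50 ± 0.12 (adjusted p = 0.00196). The largest rises by limma were 0.80 ± 0.25 for *Rpl32l*, a gene of under 2 FPKM on average in each of these groups (adjusted p = 0.0155), and 0.61 ± 0.17 for the 40S protein *Rps28* (adjusted p = 0.00837). *Rpl32l* had 10, 17 and 14 reads in the cortex libraries and 23, 17, 21 and 33 in the hippocampus libraries. Its differences, here and below, rest on few reads. The smallest differences were those of *Rpl26*, at 0.14 ± 0.13 (adjusted p = 0.38), and *Rpl36a*, at 0.16 ± 0.12 (adjusted p = 0.281).

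The other members singled out for their roles were higher in the hippocampus, as were all 79 tested members. *Rpl5* and *Rpl11*, which bind MDM2 when ribosome assembly fails, rose by 0.32 (adjusted p = 0.0194) and 0.35 (adjusted p = 0.0233) by limma. *Rps6*, the substrate of S6 kinase that is used as a readout of mTOR, rose by 0.34 (adjusted p = 0.0448). *Rpsa*, which is also described as a laminin receptor, rose by 0.35 (adjusted p = 0.0354), and *Rps4x*, a 40S protein encoded on the X chromosome, by 0.41 (adjusted p = 0.00964). In the stalk, *Rplp0* rose by 0.47 (adjusted p = 0.00892) and *Rplp2* by 0.48 (adjusted p = 0.00614), while *Rplp1* at 0.31 (adjusted p = 0.0807) and *Rps27a*, which is made as a fusion with ubiquitin, at 0.28 (adjusted p = 0.0759) did not pass.

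In the thalamus of WT CON mice 78 of 79 members had a higher mean than in the cortex, with a median difference of 0.28 against -0.01 over all genes, and 24 rose and 0 fell, where 31.6% of all genes were called and 13.7% were called higher. The 24 were 12 of the 60S and 12 of the 40S subunit. Groups did not overlap for 38 members, all higher in the thalamus, against 36.2% of all genes. *Rps15a* measured 21.15, 27.2, 25.6 and 23.1 FPKM in the thalamus and 18.1, 19.8 and 18.5 in the cortex, and these groups did not overlap. It rose by 0.36 ± 0.092 (adjusted p = 0.00572), and *Rps9*, another 40S protein, by 0.53 ± 0.14 (adjusted p = 0.00674). *Rps21* rose by 0.58 ± 0.22 (adjusted p = 0.0461) and *Rpl32l* by 0.84 ± 0.25 (adjusted p = 0.0156). *Rpl12*, at 0.01 ± 0.12 (adjusted p = 0.97), and *Rpl29*, at -0.01 ± 0.11 (adjusted p = 0.951), had the smallest differences.

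Between thalamus and hippocampus, 2 members were called, both lower in the thalamus, where 18.8% of all genes were called and 10.5% were called lower. *Rpl22* fell by 0.38 ± 0.098 (adjusted p = 0.007). Its WT CON thalamus values were 37.7, 50.1, 41.7 and 37.3 FPKM, of which 1 lay within the hippocampal range. *Rpl4*, a 60S protein that lines the peptide exit tunnel, fell by 0.23 ± 0.078 (adjusted p = 0.0369), with 209, 235, 230 and 205 FPKM against 273, 250, 242 and 266, and these groups did not overlap, as for 9.9% of all genes. The median of the 79 members was -0.07, and 59 were lower in the thalamus, and both moved with single libraries. Without thalamus replicate 1 the median was 0.01 with 38 lower, and without thalamus replicate 2 it was -0.17 with 76 lower. Without hippocampus replicate 1 it was -0.01 with 42 lower.

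**Figure D2:**
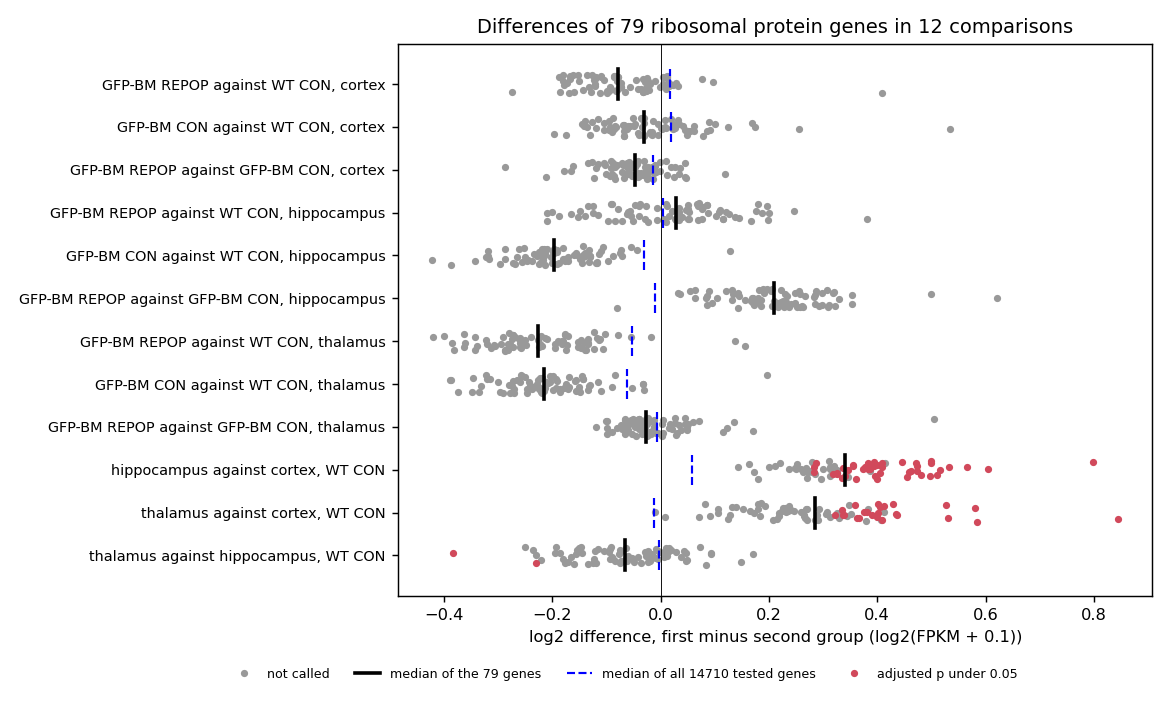
Log2 difference of each of the 79 tested members (points) in 12 comparisons, first minus second group, with members called at an adjusted p under 0.05 in red, the median of the members as a black line and that of all 14710 genes as a blue dashed line. Members were called in the 3 comparisons of regions only (45, 24 and 2), and the medians of the treatment comparisons lie between -0.23 and 0.21.

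Composition of the libraries moved with these levels. For each library the median log2 level of the 1388 tested genes with the lowest GC content (41.5% and less) was taken from that of the 1388 with the highest (58.2% and more), and the median of the 1471 longest genes (6199 bases and more) from that of the 1408 shortest other genes (1067 bases and less). Members are short, with a median counted length of 684 bases against 2799 for all genes, and close to the average in GC content (median 51.0% against 50.1%). The GC difference was 0.75 to 1.24 in the WT CON cortex, 1.75 to 3.39 in the hippocampus and 1.09 to 3.65 in the thalamus, and the length difference 0.08 to 0.29, 0.51 to 1.78 and 0.32 to 1.67. With the libraries corrected for GC content and length, the median difference of members between hippocampus and cortex was 0.13 with 26 called, and between thalamus and cortex 0.08 with 15 called, 13 higher and 2 lower. The share of all genes called after this correction is not given here, and these counts do not show whether members stand out from it. *Rpl26* and *Rpl36a* then stood at -0.22 and -0.02 against the cortex in the hippocampus, and *Rpl12* at -0.28 in the thalamus. The part of composition in the uncorrected differences was not tested otherwise.

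**Figure D3:**
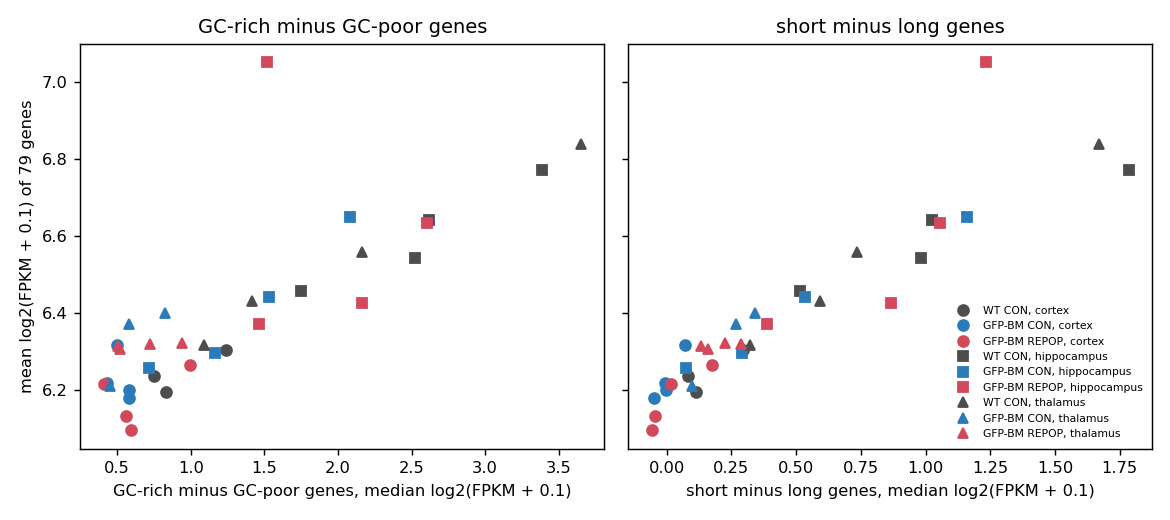
Mean log2 level of the 79 tested members in each of 34 libraries against the median log2 difference between GC-rich and GC-poor genes (left) and between short and long genes other than members (right); colours mark the treatment and shapes the region. Libraries with larger differences tend to lie higher, and 1 GFP-BM REPOP hippocampus library stands apart at 7.05 with a GC difference of 1.52.

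Markers of the dissected tissue also varied. *Tcf7l2*, a thalamic marker, ran from 14.5 to 38.8 FPKM in the thalamus and 1.08 to 5.94 in the cortex. Striatum markers, as a mean log2 level, were 4.93, 5.65, 5.68 and 2.36 in WT CON hippocampus replicates 1 to 4. They were 7.16 in GFP-BM REPOP hippocampus replicate 4, against 4.18 to 6.36 in the thalamus libraries. Choroid plexus markers were 5.80, 0.96, 2.91 and 0.56 in the WT CON hippocampi and at most 2.16 in the cortex. The mean log2 level of 8 hippocampus markers, among them *Prox1*, *C1ql2* and *Neurod2*, was 1.21 in WT CON hippocampus replicate 2, 1.53 in GFP-BM REPOP hippocampus replicate 1 and 2.03 in replicate 4, within the range of the cortex libraries (1.64 to 2.69) or below it, and 2.99 to 4.24 in the other 9 hippocampus libraries. Not all of these markers separate the regions. *Zbtb20* had a median of 0.691 FPKM in the hippocampus and 2.09 in the cortex, while the others had higher medians in the hippocampus. For *Wfs1* these were 33.6 and 28.4, and *Prox1* had 5.79 in the hippocampus against 6.36 in the thalamus. Without WT CON hippocampus replicate 2, 29 members were called against the cortex. In a fit without all 3 of the libraries low in hippocampus markers 44 were called, and 2 between thalamus and hippocampus. For these fits the share of all genes called is not given here. Neuron markers averaged 7.37 ± 0.053 (SD, n = 3) in the WT CON cortex, 6.45 ± 0.50 (n = 4) in the hippocampus and 6.72 ± 0.45 (n = 4) in the thalamus. The share of reads from the mitochondrial genome was 5.52% to 6.96% in the WT CON cortex, 3.49% to 4.10% in the hippocampus, which did not overlap the cortex, and 3.76% to 6.19% in the thalamus. The part of these measures in the differences between regions was not tested.

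The number of members called depended on single libraries. Leaving out 1 WT CON library at a time gave 19 to 56 members between hippocampus and cortex, with 19 without cortex replicate 1, 22 without cortex replicate 3, 21 without hippocampus replicate 1 and 29 without replicate 2. It gave 3 to 43 between thalamus and cortex, with 3 without WT CON thalamus replicate 2, 43 without thalamus replicate 1, 14 without replicate 3, and 6, 13 and 5 without cortex replicates 1, 2 and 3. A fit of the WT CON libraries alone called 8 and 1 members in these comparisons and 0 between thalamus and hippocampus. The share of all genes called in each of these fits is not given here.

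Among the transplanted mice the same regions were compared within each group, as comparisons added after values were seen; whether the differences between regions changed with treatment is tested further on. In GFP-BM CON mice 3 members rose from cortex to hippocampus, where 21.0% of all genes were called and 8.32% called higher. They were *Rplp0*, by 0.41 ± 0.13 (adjusted p = 0.0242 by limma), *Rps9*, by 0.35 ± 0.13 (adjusted p = 0.0492), and *Rpl22*, by 0.28 ± 0.098 (adjusted p = 0.044). From cortex to thalamus 0 were called by limma (13.7% of all genes), and 5 members and 25.9% of all genes had an unadjusted p under 0.05. From hippocampus to thalamus *Rpl22* fell by 0.34 ± 0.11 (adjusted p = 0.0289), where 15.1% of all genes were called and 7.96% called lower.

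In GFP-BM REPOP mice 73 members rose from cortex to hippocampus, with a median of 0.43, where 18.9% of all genes were called and 5.39% called higher. The lowest adjusted p values were those of *Rpl30*, at 0.51 ± 0.10 (adjusted p = 0.0015 by limma), *Rps28*, at 0.76 ± 0.16 (adjusted p = 0.00237), and *Rps23*, at 0.50 ± 0.11 (adjusted p = 0.00308). From hippocampus to thalamus 40 fell, with a median of -0.31, where 35.5% were called and 17.5% called lower, and *Rpl22* was among them at -0.44 ± 0.098 (adjusted p = 0.00139). Without GFP-BM REPOP hippocampus replicate 2 the counts were 24 and 7, with the share of all genes called in that fit not given here. From cortex to thalamus 0 were called by limma (15.8% of all genes), and 6 members and 28.0% of all genes had an unadjusted p under 0.05.

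The second question was whether irradiation with transplant, or the inhibitor on top of it, changed these messages. In the 9 treatment comparisons 0 members were called by limma at an adjusted p under 0.05, and 0 in any of them by voom on the recovered reads. The comparisons in a region share libraries: both transplanted groups were set against the same WT CON mice. In the cortex 0.734% of all genes were called for GFP-BM REPOP against WT CON, 0.32% for GFP-BM CON against WT CON and 0.0476% between the transplanted groups. In the hippocampus these shares were 0.0136%, 0.0% and 0.0272%, and in the thalamus 0.836%, 0.0% and 0.0%. At an unadjusted p under 0.05 there were 16, 8 and 3 members in the cortex (14.3%, 16.0% and 4.27% of all genes), 0, 5 and 2 in the hippocampus (9.67%, 23.9% and 11.7%), and 30, 11 and 0 in the thalamus (25.0%, 20.7% and 0.945%).

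The mean log2 level of the 79 members in each library shows the spread behind these counts. In the cortex it was 6.20, 6.30 and 6.24 in WT CON, 6.32, 6.18, 6.22 and 6.20 in GFP-BM CON, and 6.27, 6.13, 6.10 and 6.22 in GFP-BM REPOP mice. Hippocampal values were 6.77, 6.64, 6.46 and 6.54 in WT CON, 6.44, 6.30, 6.26 and 6.65 in GFP-BM CON, and 6.43, 7.05, 6.63 and 6.37 in GFP-BM REPOP mice. In the thalamus it was 6.32, 6.84, 6.56 and 6.43 in WT CON, 6.37, 6.21 and 6.40 in GFP-BM CON, and 6.32, 6.31, 6.32 and 6.32 in GFP-BM REPOP mice. The groups overlapped in every region. The WT CON thalamus spread over 0.52 and the GFP-BM REPOP thalamus over 0.02 on this scale.

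**Figure D4:**
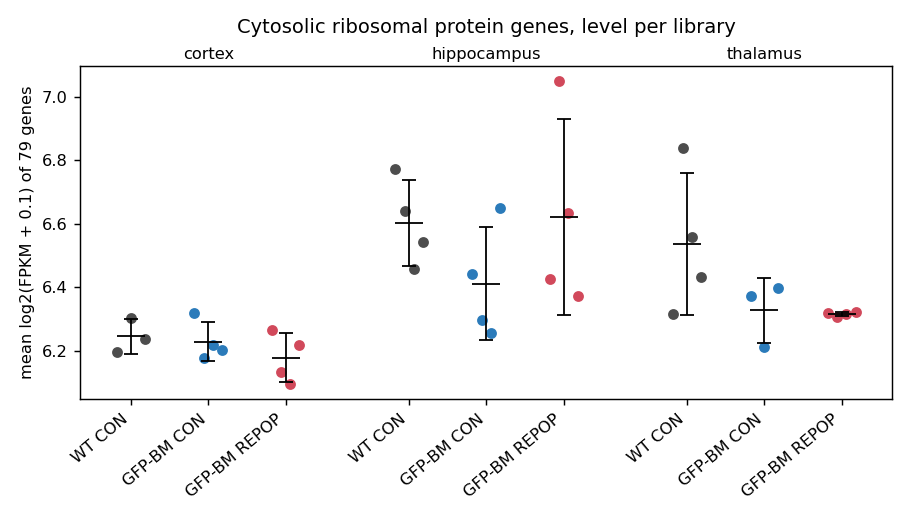
Mean log2(FPKM + 0.1) of the 79 tested members in each library (points) by region and group, with the group mean and SD in black (n = 3 or 4). Groups overlap in every region, the 11 cortex libraries lie between 6.10 and 6.32, and the highest value, 7.05, is GFP-BM REPOP hippocampus replicate 2.

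In the thalamus members were lower in both transplanted groups than in WT CON mice, without passing the test. The median difference was -0.23 for GFP-BM REPOP, with 77 of 79 lower, and -0.22 for GFP-BM CON, with 78 lower, while 55.1% and 56.5% of all genes were lower and their medians were -0.05 and -0.06. Between the transplanted groups the median was -0.03. There *Rpl32l* was the member whose groups did not overlap, at 0.50 ± 0.26 higher in GFP-BM REPOP (adjusted p = 1.0 by limma), where 4.56% of all genes did not overlap. For GFP-BM REPOP against WT CON 21 members had groups that did not overlap, all lower, against 18.8% of all genes in either direction, and for GFP-BM CON 6 did, against 23.1%. The lowest adjusted p was that of *Rpl7a*, a 60S protein. Its FPKM was 70.0, 102, 81.02 and 77.5 in the WT CON and 56.0, 64.2, 61.2 and 63.3 in the GFP-BM REPOP thalamus, and these groups did not overlap. The difference was -0.42 ± 0.11 (adjusted p = 0.0728 by limma).

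The stalk base *Rplp0* stood at 107, 178, 127 and 118 FPKM in the WT CON thalamus, 101, 95.3 and 101 in GFP-BM CON, and 96.5, 94.9, 100 and 102 in GFP-BM REPOP mice. Its differences from WT CON were -0.40 ± 0.13 (adjusted p = 0.135) and -0.39 ± 0.14 (adjusted p = 0.196) by limma. All transplanted libraries lay below the WT CON range, and the highest WT CON value was that of replicate 2. *Rps21* had a difference of -0.39 ± 0.13 in GFP-BM CON (adjusted p = 0.171). On the higher side, *Rpl22l1* stood at 0.14 ± 0.11 and 0.20 ± 0.12 in GFP-BM REPOP and GFP-BM CON (adjusted p = 0.375 and 0.303), and *Rpl32l* at 0.16 ± 0.24 in GFP-BM REPOP (adjusted p = 0.646).

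WT CON thalamus replicate 2 held the highest level of 75 of the 81 members in its group and replicate 1 the lowest of 69. Without replicate 1, 17 members were called lower in GFP-BM REPOP and 2 in GFP-BM CON than in WT CON mice, where 1788 and 1179 of all 14710 genes were called, and the medians were -0.30 and -0.29. Without replicate 2, 0 members were called by limma and the medians were -0.13 and -0.11. Without GFP-BM CON replicate 2 the median of GFP-BM CON against WT CON was -0.15. The GC difference was 3.65 in replicate 2 and 1.09 in replicate 1, and 0.45 to 0.94 over the 7 transplanted thalami. The mitochondrial share of reads was 3.76% to 6.19% in the WT CON thalamus, with the lowest value in replicate 2, against 6.85% to 6.91% in GFP-BM CON and 5.99% to 6.86% in GFP-BM REPOP mice. Neuron markers averaged 6.72 ± 0.45 (SD, n = 4), 7.21 ± 0.029 (n = 3) and 7.18 ± 0.12 (n = 4). The part of these measures was not tested. After correction for GC content and length the medians were -0.05 and -0.02, with 0 called, and with quantile normalization -0.08 and -0.08. In a fit of all 9 groups 6 and 1 members were called, with the share of all genes called in that fit not given here.

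In the hippocampus GFP-BM CON mice had the lowest means. They had lower means than WT CON mice for 78 of 79 members, with a median of -0.20 against -0.03 over all genes, and 9 members had groups that did not overlap, all lower, against 13.7% of all genes. The lowest difference was that of *Rpl32l*, at -0.42 ± 0.26 (adjusted p = 0.339), and the next that of *Rps15a*, at -0.39 ± 0.11 (adjusted p = 0.0831 by limma). Its values were 26.5, 26.7, 22.6 and 23.7 FPKM in WT CON, 19.5, 18.05, 18.8 and 19.4 in GFP-BM CON, and 21.97, 23.4, 23.6 and 17.4 in GFP-BM REPOP mice, so that GFP-BM CON did not overlap WT CON. *Rplp1* (-0.04 ± 0.17) and *Rps27l* (0.13 ± 0.25) lay at the other end. The GC difference was 1.75 to 3.39 in WT CON and 0.71 to 2.08 in GFP-BM CON hippocampi. The share of reads from the mitochondrial genome was 3.49% to 4.10% in WT CON and 4.77% to 6.87% in GFP-BM CON hippocampi. Astrocyte markers, as a mean log2 level, ran from 5.45 to 5.70 and from 5.97 to 6.19. The mitochondrial share and the astrocyte markers did not overlap between the groups, while the GC difference did. Neuron markers ran from 5.98 to 7.02 and from 6.89 to 7.28. The part of these measures in the difference was not tested. After correction for GC content and length the median was -0.09 with 56 members lower, and with quantile normalization it was -0.11.

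GFP-BM REPOP mice had higher means than GFP-BM CON mice for 78 of 79 members, with a median of 0.21 against -0.01 over all genes, and groups overlapped for all 79, where 6.88% of all genes did not overlap. The largest differences were 0.62 ± 0.26 for *Rpl32l* (adjusted p = 0.401) and 0.50 ± 0.25 for *Rps21* (adjusted p = 0.462), and the smallest -0.08 ± 0.25 for *Rps27l* and 0.03 ± 0.16 for *Rplp0*. Against WT CON mice the median was 0.03, with 47 higher and 32 lower, and groups overlapped for all 79 where 4.0% of all genes did not overlap. The differences ran from -0.21 for *Rps15a* and *Rpl7l1* to 0.38 ± 0.25 for *Rps21*.

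A single library carried much of this difference. GFP-BM REPOP hippocampus replicate 2 held the highest level of 79 of the 81 members in its group and of 57 among all 34 libraries. Its members summed to 14935 FPKM, against 9360, 11006 and 9234 in the other 3. *Rps21* read 124, 256, 137 and 95.9 FPKM in GFP-BM REPOP replicates 1 to 4, against 97.9, 86.0, 92.9 and 133 in GFP-BM CON. *Rpl22l1* read 62.2, 115, 70.5 and 63.4, and *Rpl12*, a 60S protein of the stalk base, 68.6, 108, 69.4 and 68.0. Without this library the median against GFP-BM CON was 0.08 with 16 of 79 lower, and against WT CON -0.12 with 71 lower. Without the 2 GFP-BM REPOP and the WT CON hippocampus libraries low in hippocampus markers, which leaves replicates 2 and 3 of GFP-BM REPOP, it was 0.42 against GFP-BM CON and 0.26 against WT CON, with 0 called. The GC difference was 1.52 and the length difference 1.24 in replicate 2, against 1.46 to 2.60 and 0.39 to 1.05 in the other 3, and its share of reads from the mitochondrial genome was 6.20% against 4.26% to 5.75%. The part of these measures was not tested.

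In the cortex the differences were small. GFP-BM REPOP mice had lower means than WT CON mice for 63 members, with a median of -0.08, GFP-BM CON mice for 51, with a median of -0.03, and the inhibitor-treated group against its transplanted control for 68, with a median of -0.05. Groups did not overlap for 12, 7 and 2 members, all lower, against 9.48%, 16.0% and 3.09% of all genes. *Rpl36a* was lowest against WT CON, at -0.27 ± 0.12 (adjusted p = 0.316 by limma), with 40.5, 41.8 and 45.9 FPKM in WT CON, 41.1, 29.9, 44.9 and 37.0 in GFP-BM CON and 36.9, 35.5, 31.5 and 37.5 in GFP-BM REPOP mice. *Rps6* followed at -0.19 ± 0.057 (adjusted p = 0.2), with 71.5, 76.4 and 69.8 in WT CON and 68.3, 60.1, 61.6 and 65.1 in GFP-BM REPOP mice, which did not overlap. *Rpl12* stood at -0.20 ± 0.055 in GFP-BM CON against WT CON (adjusted p = 0.141) and at 0.12 ± 0.05 in GFP-BM REPOP against GFP-BM CON (adjusted p = 1.0). *Rps28* stood at 0.26 ± 0.14 and -0.29 ± 0.13 in the same comparisons (adjusted p = 0.404 and 1.0). *Rpl32l* was highest against WT CON in both transplanted groups, at 0.41 ± 0.22 and 0.54 ± 0.22, with 0.99 ± 0.25 FPKM (SD, n = 3) in WT CON.

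Whether treatment acted differently between regions was tested as 9 contrasts of contrasts. By limma 0 members were called in any of them. For the difference of GFP-BM REPOP against GFP-BM CON between hippocampus and cortex the median of members was 0.25, and 13 had an unadjusted p under 0.05, as did 8.52% of all genes, while 0.177% of all genes were called after adjustment. For the same treatment comparison between thalamus and hippocampus the median was -0.23, with 3 members and 7.64% of all genes under an unadjusted p of 0.05 and 0.0272% of all genes called after adjustment. For GFP-BM REPOP against WT CON between thalamus and hippocampus it was -0.24, with 3 members and 9.99% of all genes under an unadjusted p of 0.05 and 0.034% called after adjustment. Without GFP-BM REPOP hippocampus replicate 2 these 3 medians were, in the order given, 0.12, -0.08 and -0.11. After correction for GC content and length they were 0.16, -0.16 and -0.09. In the other 6 contrasts between 0 and 2 members had an unadjusted p under 0.05, where between 0.204% and 10.1% of all genes did and 0.0% to 0.034% were called after adjustment.

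Some ribosomal proteins have a paralog that can take their place, and these pairs were compared by FPKM, which is per length. *Rpl22l1* was the more abundant of its pair, with 67.3 FPKM against 43.0 for *Rpl22*. The *Rpl22l1* level was 152% ± 3.1 (SD, n = 3) of that of *Rpl22* in the WT CON cortex, 130% ± 13 (n = 4) in the hippocampus and 161% ± 37 (n = 4) in the thalamus. In the transplanted groups it was 157% ± 7.1 and 157% ± 8.8 in the cortex, 138% ± 21 and 154% ± 29 in the hippocampus, and 197% ± 3.9 (n = 3) and 196% ± 23 (n = 4) in the thalamus, for GFP-BM CON and GFP-BM REPOP. In the WT CON thalamus the ratio ran from 105% to 185%, with the lowest value in replicate 2, where *Rpl22* was 50.1 and *Rpl22l1* 52.7 FPKM. *Rpl22l1* was called in 0 of the 12 comparisons, and its difference between WT CON hippocampus and cortex was 0.24 (adjusted p = 0.176 by limma). Neither gene shared more than 2.1% of its windows with another transcript.

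**Figure D5:**
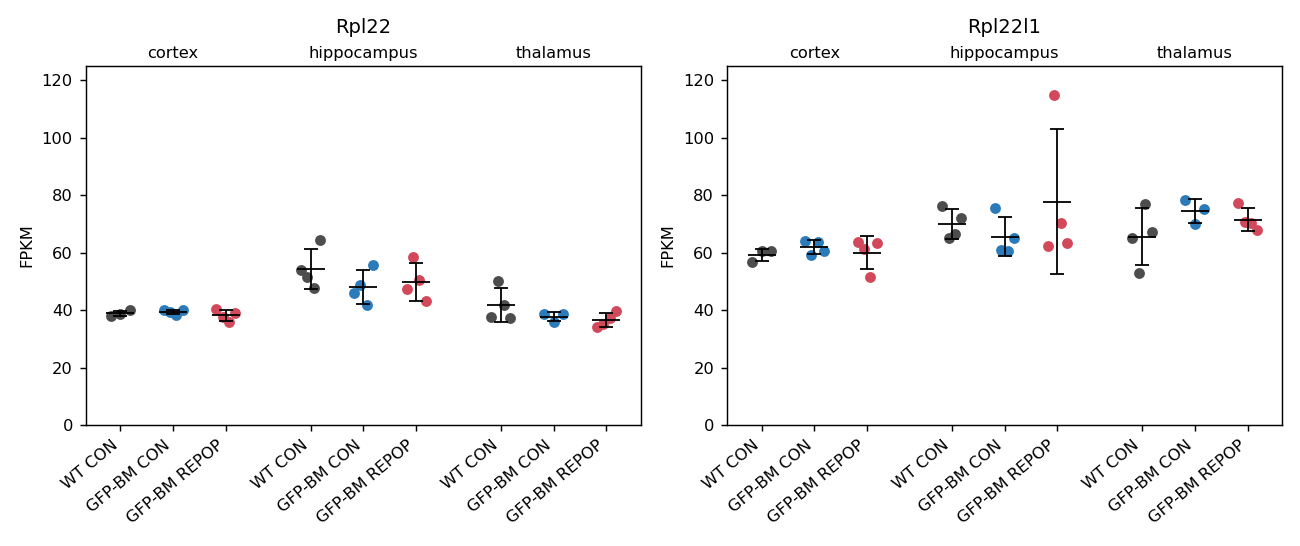
FPKM of *Rpl22* (left) and *Rpl22l1* (right) in each library (points) by region and group, with the group mean and SD in black (n = 3 or 4). *Rpl22* has its highest group means in the hippocampus, where libraries run from 41.7 to 64.3, and *Rpl22l1* is above *Rpl22* in each group mean, with GFP-BM REPOP hippocampus replicate 2 apart at 115.

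The other paralogs and copies were the lesser of their pairs. *Rps27l* had 23.6 FPKM against 47.3 for *Rps27*, and it rose from WT CON cortex to hippocampus by 0.51 (adjusted p = 0.0394 by limma). *Rpl7l1* had 15.7 against 164 for *Rpl7*, between 8.93% and 10.4% of it in every group mean. *Rps4l* had 17.5 against 57.2 for *Rps4x*, from 23.4% of it in the GFP-BM REPOP cortex to 41.6% in the GFP-BM CON thalamus. *Rpl6l*, a pseudogene in the annotation, had 49.7 FPKM against 74.3 for *Rpl6*. *Rpl32l* had 1.63 against 236 for *Rpl32*, under 1.2% of it in every library.

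The wider translation machinery was described by lists fixed for this work. Of all genes, 38.3% were called from WT CON cortex to hippocampus and 16.6% called higher. From WT CON cortex to thalamus 31.6% were called and 13.7% called higher. The 5 ribosome components with other symbols (among them *Fau*, *Rps3a1*, *Rpl36al* and *Rack1*) had a median of 0.34 between WT CON hippocampus and cortex, with 3 rising, and -0.22 in both transplanted groups against WT CON in the thalamus, with 0 called. The elongation factor list held 10 genes, among them *Eef2k* and *Eef1e1*, which are not elongation factors themselves. Of the 10, 4 rose and 1 fell from cortex to hippocampus, and 5 rose and 1 fell from cortex to thalamus. *Eef1a1*, which brings aminoacyl-tRNA to the ribosome, rose by 0.56 in the hippocampus (adjusted p = 0.000401 by limma), and *Eef2*, which drives translocation, by 0.48 in the thalamus (adjusted p = 0.00615). *Eif5a2* fell by 1.61 in the hippocampus (adjusted p = 0.0019). Of 18 other genes with TOP mRNAs, 8 rose and 1 fell in the hippocampus and 6 rose and 3 fell in the thalamus. This list shares genes with the other lists, among them *Eef1a1*, *Eef2* and *Rack1*.

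Ribosome biogenesis genes did not follow one direction: of 65 tested, 15 rose and 13 fell from WT CON cortex to hippocampus, and 1 rose and 7 fell to the thalamus. Of all genes 38.3% and 31.6% were called in either direction in these comparisons, which applies to each list below as well. *Nob1*, an endonuclease that finishes 18S rRNA, stood at 0.44 (adjusted p = 0.00228 by limma) in the hippocampus, and *Nop58*, a core protein of box C/D snoRNPs, at -1.95 (adjusted p = 0.0036). Of 77 mitochondrial ribosomal proteins 11 rose and 0 fell both in the hippocampus and in the thalamus against the cortex, with medians of 0.18 and 0.15, where 16.6% and 13.7% of all genes were called higher. Of 44 initiation factors 14 rose and 10 fell in the hippocampus, and 1 rose and 11 fell in the thalamus. Of 19 regulators of TOP translation and ribosome stress 5 rose and 4 fell in the hippocampus, and 1 rose and 2 fell in the thalamus. In the 9 treatment comparisons 0 genes of any of these lists were called. Microglia markers averaged 3.11 ± 0.094 (SD, n = 3) in the WT CON cortex and 2.69 ± 0.083 (n = 4) in GFP-BM REPOP. In the hippocampus they averaged 3.13 ± 0.19 and 2.88 ± 0.25 (n = 4 each), and these groups overlapped. In the thalamus they averaged 3.06 ± 0.10 and 2.81 ± 0.044 (n = 4 each). Markers of engrafted myeloid cells averaged -0.72 ± 0.27 and 1.68 ± 0.31 in the cortex. They averaged -0.36 ± 0.33 and 1.67 ± 0.49 in the hippocampus, and -0.41 ± 0.17 and 2.04 ± 0.23 in the thalamus. The part of these markers in the levels of ribosomal protein genes was not tested.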

How the data were processed

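The authors sequenced RNA as paired reads, aligned it with STAR, counted reads per Entrez gene with featureCounts and deposited 1 table of FPKM values; the submitters' processing notes name the build mm10. In each library the values of a gene step by what 1 read is worth, and whole reads were recovered for 100% of values (within 0.01 reads), 17085018 to 26010509 per library (median 21367227). At this depth tested members other than *Rpl32l* had at least 205 reads on average, and intervals cover the spread between mice.

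The members and lists were chosen with earlier results of these data known. Genes with an FPKM of at least 1 in at least 3 libraries and a protein coding, lncRNA or unknown biotype (366) were tested, 14710 in all. Treatment comparisons used limma-trend 3.58.1 (R 4.3.3) on log2(FPKM + 0.1), 3 groups in a fit per region, two-sided, adjusted by Benjamini-Hochberg over all genes tested. Regions were compared in a fit of 9 groups with no term for the animal, although the same mice gave several regions. The contrasts of contrasts had the animal, which the labels number, as a random block (correlation -0.0384). The fits were tested on simulated data. All 48 pairs of libraries within groups differed by more than sampling noise, at 2.55 times or more. Positions and biotypes came from RefSeq GRCm38.p6, the assembly behind mm10, which matched 15947 IDs. Named were 10 members with known roles, paralogs and their partners, the 5 highest and 5 lowest members, the 2 largest rises and falls in each comparison, and members called (up to 5, otherwise the 3 with the lowest adjusted p). Some genes that this rule names are not reported here. The comparisons of regions within transplanted groups, *Rps27rt* and the other copies, and the other genes outside the members were chosen after values were seen. Alternatives were other pseudocounts, filters, scalings, voom on the reads, a correction for GC content and length, other fits, and leaving out each library.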

Additional observations from a re-analysis of the deposited data

Results flagged for a closer look

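Single libraries stood apart from the other 3 of their group by Dixon's criterion for the following members, among 266 group values looked at (the mean level and 37 members in 7 groups of 4); chance alone flags about 1 in 20, and 12 values were flagged. In GFP-BM REPOP hippocampus replicate 2 *Rpl12* was 108 FPKM against 68.0 to 69.4, and *Rpl22l1* 115 against 62.2 to 70.5. In WT CON thalamus replicate 2 *Rpl37* was 29.0 against 20.8 to 21.8, *Rps27l* 29.1 against 20.8 to 21.99, and *Rps4l* 32.9 against 21.7 to 23.3. In WT CON hippocampus replicate 3 *Rpl18* was 80.8 against 101 to 103 and *Rpl7a* 78.1 against 92.2 to 93.0, and in replicate 1 *Rpl12* was 75.7 against 71.0 to 71.4. *Rpl10* was 121 in GFP-BM CON hippocampus replicate 4 against 96.4 to 99.1, and 86.0 in GFP-BM CON cortex replicate 2 against 90.6 to 90.8. *Rps27a* was 50.4 in GFP-BM CON cortex replicate 1 against 39.7 to 41.3, and *Rpl3* was 150 in GFP-BM REPOP thalamus replicate 3 against 144 in each of the other 3.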

How the results depend on the processing

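Beside what is given with each result, other pseudocounts, filters and voom left the counts of members within 1.5 times. With median-ratio scaling 1 member was called in the cortex for GFP-BM REPOP against WT CON, and with quantile normalization 1 in the thalamus for the same groups and 44 from WT CON cortex to thalamus. A fit of all 9 groups called 7 members in the hippocampus for GFP-BM CON against WT CON, and 6 and 1 in the thalamus for GFP-BM REPOP and GFP-BM CON against WT CON. A fit of the WT CON libraries alone called 8, 1 and 0 members between hippocampus and cortex, thalamus and cortex, and thalamus and hippocampus. The correction for GC content and length called 26, 15 and 8 in these comparisons, 6 and 2 between hippocampus or thalamus and cortex in GFP-BM CON mice, and 27 and 2 in GFP-BM REPOP mice. The cause of these changes was not tested. The fit of WT CON libraries holds fewer samples and also leaves out the spread of the transplanted groups. The share of all genes called under these settings is not given here, and the counts are not set against it.

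Leaving out single libraries gave 0 to 1 members called in the cortex for GFP-BM REPOP against WT CON (1 without GFP-BM REPOP cortex replicate 1 or 4), 0 to 17 and 0 to 2 in the thalamus for GFP-BM REPOP and GFP-BM CON against WT CON, 19 to 56 from cortex to hippocampus, 3 to 43 from cortex to thalamus and 1 to 8 between thalamus and hippocampus. In the last, 8 were called without WT CON thalamus replicate 2, 4 without hippocampus replicate 3, and 1 without hippocampus replicate 1 or 4 or thalamus replicate 1 or 4. In GFP-BM REPOP mice 24 and 7 were called without hippocampus replicate 2. Except where given above, these counts also stand without the share of all genes called in the same fit.

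Directions turned for members with small differences. After correction for GC content and length, GFP-BM CON against WT CON stood at 0.14 for *Rplp1* and -0.35 for *Rps27l* in the hippocampus, and at 0.076 for *Rpl21* and -0.19 for *Rpl22l1* in the thalamus. *Rpl22l1* stood at -0.27 for GFP-BM REPOP against WT CON in the thalamus, and between the transplanted groups in the hippocampus *Rplp0* at -0.080 and *Rps27l* at 0.034. Between WT CON regions *Rpl26* stood at -0.22 and *Rpl36a* at -0.022 in the hippocampus and *Rpl12* at -0.28 in the thalamus. Quantile normalization gave 0.078 for *Rpl21*, -0.075 for *Rplp0* and -0.19 for *Rpl32l* (GFP-BM REPOP against WT CON, thalamus), and median-ratio scaling 0.014 for *Rpl21*. Without the hippocampus libraries low in hippocampus markers *Rps27l* stood at 0.18 for GFP-BM REPOP against GFP-BM CON. Leaving out single libraries gave -0.10 to 0.013 for *Rplp1* and -0.086 to 0.29 for *Rps27l* (GFP-BM CON against WT CON, hippocampus), -0.057 to 0.019 for *Rpl21*, -0.11 to 0.13 for *Rplp0* and -0.23 to 0.13 for *Rps27l* (between the transplanted groups, hippocampus), and -0.099 to 0.076 for *Rpl12* and -0.12 to 0.063 for *Rpl29* from cortex to thalamus.

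Within a region the replicate numbers do not pair animals, because the labels give different mice for each treatment. Deviations from group means were correlated between same-numbered libraries of different treatments. These correlations were -0.11 to 0.25 in the cortex, -0.43 to 0.49 in the hippocampus and -0.35 to 0.14 in the thalamus. Between regions, the same replicate number is the same mouse throughout in GFP-BM REPOP mice. It is not so for the WT CON cortex, nor for all of the GFP-BM CON thalamus. With the replicate number as a block 0 members were called in the 9 treatment comparisons, and with the animal as a block 45, 22 and 2 between regions. The libraries low in hippocampus markers, the comparisons of regions in the transplanted groups and the alternatives to the contrasts of contrasts were chosen after seeing the data. In these alternatives the contrasts of contrasts called 0 members by limma.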
